A study of Mus musculus with 8 samples.

Results

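Spinal cord astrocyte RNA from the chronic phase of experimental autoimmune encephalomyelitis (EAE), the mouse model of multiple sclerosis, was compared with the same material from EAE without a phase label, called acute here. The comparison used 4 of the 8 arrays of the series, 1 for each genotype and phase: wild-type (WT) mice with EAE, connexin 47 (Cx47) deficient mice with EAE, WT mice in the chronic phase and Cx47-deficient mice in the chronic phase. The 4 arrays were chosen by their labels, and chronic minus acute was taken within each genotype. Of 53814 probes on autosomes, 37418 were flagged well above background on 2 or more arrays of these 4. After 4 of them were left out for an outlier spot, 37414 probes stood for 24351 genes.

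All 4 groups were C57Bl/6J mice with the tissue given as spinal cord and the source as astrocytes, and neither acute group had received iguratimod, the treatment of 2 other arrays. The series title describes a conditional Cx47 knockout specific to oligodendroglia. The sample titles write FL or F/F for the WT mice and icKO for the Cx47-deficient mice, and these codes were not interpreted. The sources used here do not give how the astrocytes were isolated, the days after immunisation, the sex of the mice, or whether several animals were pooled.

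EAE is driven by T cells that recognise myelin and release interferon gamma, to which resident glia and incoming monocytes respond with interferon-inducible genes such as guanylate-binding proteins, MHC molecules and the chemokines that draw in more T cells. Astrocytes respond to injury and cytokines by raising intermediate filaments such as Gfap, complement and acute phase proteins.

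Levels are log2 processed signals minus the 75th percentile of the array, so that 0 is the 75th percentile. The chronic arrays differed from the acute arrays in more than phase. They lay on a slide and in a scan session of their own, with 71.3% to 72.0% of spots well above background against 59.9% to 65.5% on the acute arrays, and with a spike-in slope of 0.76 against 1.06 to 1.07. The Y-linked genes Ddx3y, Eif2s3y, Kdm5d and Uty were well above background on both acute, both naive and both iguratimod arrays and on 0 of the 2 chronic arrays. Xist, the RNA that coats the inactive X chromosome, was well above background on the 2 chronic arrays and on 0 of the others, at -2.01 and -2.36 against -7.45 and -7.69 on the acute arrays. Slide, scan session and this sex-linked pattern therefore cannot be told apart from phase. Only autosomal probes entered the comparison, which does not remove differences in autosomal genes that go with this pattern. Of the spike-in probes, 7 of 10 were well above background on all 4 arrays and were 0.30 to 0.60 lower on the chronic array in the WT pair and 0.27 to 0.46 lower in the Cx47-deficient pair, in log2 units.

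The astrocyte label was checked against markers. All 22 listed astrocyte identity genes were well above background on all 4 arrays, and so were all 22 genes taken for the neuronal and synaptic list. Among these 22 was Ptpn11, a different gene that was matched through a synonym to the listed Syp, synaptophysin. Synaptophysin itself was not among the genes measured. All 18 myelin genes, all 12 measured homeostatic microglia genes, all 15 choroid plexus genes and all 12 cerebellar genes were well above background on all 4 arrays too. Of the 16 spinal cord Hox genes, 14 were. Markers of other cell types were thus measured beside those of astrocytes on all 4 arrays. In such bulk RNA, fewer cells of a type and less RNA per cell cannot be told apart.

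Most measured members of the lists of interferon gamma GTPases (11 of 12), interferon-stimulated genes (17 of 19), MHC class II genes (8 of 10), MHC class I genes (9 of 14), chemokines (9 of 17) and complement (10 of 13) were called lower in the chronic phase. The 12 largest falls were Saa3, Cfb, Cxcl9, Cxcl10, Chil3, Ly6f, F10, Gbp2, Ifng, Zbp1, Iigp1 and Lcn2. Astrocyte reactivity genes fell with them, Gfap by 6.51-fold. Of the rises, 68.8% were not RefSeq protein-coding genes, and 28.1% were dim on both acute arrays. The fit, limma over all 8 arrays with condition and genotype as terms, called 3872 of 24351 genes (15.9%) at a Benjamini-Hochberg adjusted p under 0.05. Of these, 1425 (5.85% of all genes) were lower and 2447 (10%) higher in the chronic phase. All 3872 had the same sign in both genotypes. This is no separate support, since disagreement between genotypes adds to the spread of the fit.

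With 1 array per group, the spread in this fit comes from the variation of the genotype difference from condition to condition, on 3 residual degrees of freedom. The arrays differ in genotype or condition and so carried different animals, but no label says how many animals each array held. How much of that spread is technical is not known. The call count rested on single arrays: it was 0 without the WT acute, the Cx47-deficient acute or the WT chronic array, where 4362, 6934 and 4894 genes had an unadjusted p under 0.05 in limma. It was 1516 without the Cx47-deficient chronic array, 615 without either iguratimod array and 2682 without either naive array. The lowest adjusted p in the reported fit was 0.0204, reached by Cxcl10 among others. Without any model, 980 genes (4.02%) were at least 2-fold lower and 2570 (10.6%) at least 2-fold higher in both genotypes, and 19 (0.078%) moved 2-fold in opposite directions. In the WT pair 2997 genes (12.3%) were 2-fold lower and 4463 (18.3%) 2-fold higher, against 1285 (5.28%) and 2928 (12%) in the Cx47-deficient pair. Across the 24351 genes, which are not independent replicates, the 2 genotypes' changes had a Pearson r of 0.81.

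The share of calls that were rises depended on the scaling. It was 63.2% as reported, 52.2% with normexp background correction, 52.2% with quantile normalization, 43.1% with median centring, 46.6% after division by the spike-in slope, 50.3% with the authors' deposited values and 88.1% with centring on the spike-in probes. The median of all genes was 0.03 as reported, -0.37 with median centring and 0.42 with spike-in centring. The falls had the same sign in 100% of cases under 7 of these scalings and in 91.6% under the spike-in slope. Cyclic loess and classes of probe GC content are counted as scalings too. Fewer falls stayed called lower: 51.1% with spike-in centring, 64.8% with probe GC classes, 79.9% with the spike-in slope and 81.1% with cyclic loess. Under the other scalings 91.0% to 100% did.

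**Figure D1:**
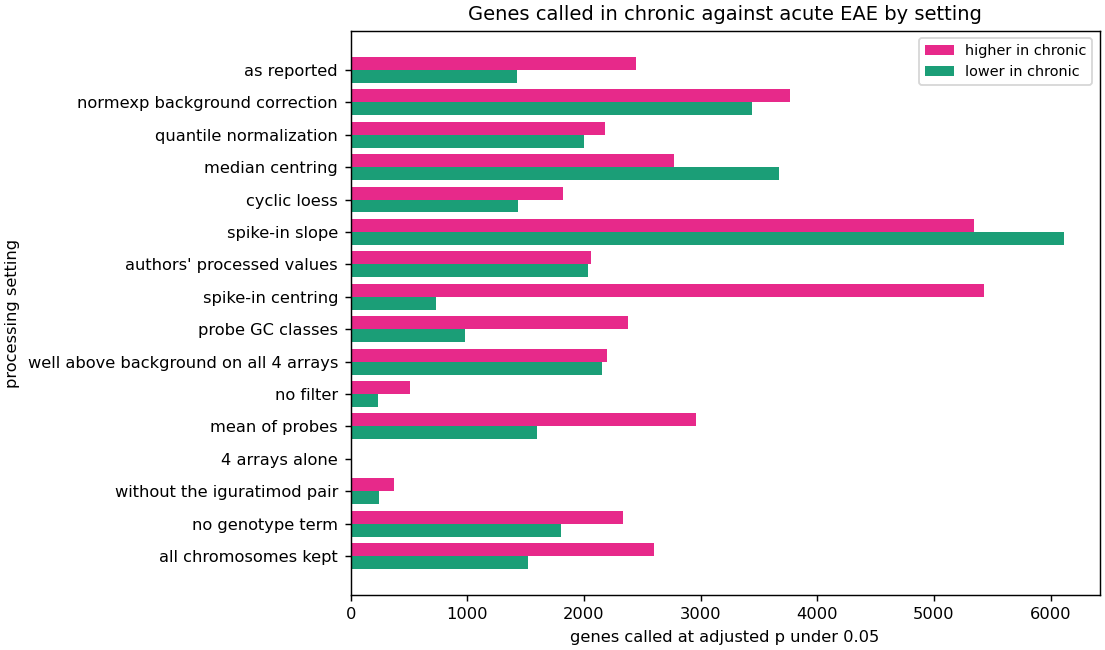
Genes called at an adjusted p under 0.05 (horizontal axis) under each processing setting (vertical axis), with rises and falls as separate bars. Rises outnumber falls as reported (2447 and 1425), falls outnumber rises with median centring (3668 and 2773) and after division by the spike-in slope (6114 and 5344), and the 4 arrays alone give 0 calls.

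Interferon gamma itself, the T cell and NK cell cytokine Ifng, lay at -3.89 (WT) and -3.50 (Cx47-deficient) on the acute arrays. On the chronic arrays it was not well above background, at -7.61 and -8.11, nor was it on the naive arrays, at -7.41 and -7.81. It was at least 4.32-fold lower in the chronic phase, a bound taken against the lowest signal well above background on each chronic array. Genes given as such a bound passed the filter through the arrays of 1 phase alone, and their limma p, 0.0296 adjusted for Ifng, rests on signals below background and is not independent support.

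The interferon gamma-inducible GTPases, which attack vacuoles that hold pathogens, fell almost as a group. Of 12 measured members, 11 were called lower and 0 higher, against 5.85% called lower among all genes. Their median difference was -3.29, against 0.03 over all genes. The median member lay at 0.89 and 1.36 on the WT and Cx47-deficient acute arrays, at -2.67 and -1.89 on the chronic arrays and at -3.34 and -3.38 on the naive arrays. Gbp2 lay at 1.56 and 2.14 in the acute and at -2.71 and -2.09 in the chronic phase, a 19.0-fold fall. The fitted difference was -4.24 ± 0.28 (log2 ± SE, adjusted p 0.0213, limma). Each SE given after ± comes from the limma fit over all 8 arrays and is not the spread of the 2 pairs. Igtp, also called Irgm3, went from 3.06 and 3.34 to -0.66 and -0.27 (-3.67 ± 0.33; adjusted p 0.0292). For both genes the acute and chronic arrays did not overlap, and the 2 genotypes moved by nearly the same amount. Both genes were named for their large differences, so this describes them and is not further support. Iigp1 fell by 4.13 on the log2 scale at its brighter probe, while a dimmer probe of the same gene differed by 0.84. The member that was not called, Gbp5, differed by 1.37 at its brighter probe (adjusted p 0.0595) and by -2.35 at its other probe, so its probes disagree. Irgm1, called lower at -2.56, likewise had 2 further probes at -3.31 and -2.60 and a dim one at 2.98. Under the 8 other scalings 11 members were called lower each time; 7 were without the Cx47-deficient chronic array and 6 without the iguratimod arrays.

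The 250 bases before the start are shown for Gbp2 and Igtp and for the chemokines Cxcl9 and Cxcl10, 4 genes picked from those that fell. They were read from the RefSeq promoter table on GRCm38.p6, 5′ to 3′ on the strand of the gene. Capitals mark matches to the interferon-stimulated response element (ISRE, searched as 2 copies of GAAA with 2 bases of any kind between them or, on the other strand, TTTC spaced likewise) and to the gamma-activated site (GAS, searched as TTCNNNGAA, which reads the same on both strands).
Cxcl9 (chr5:92328080-92328329, minus strand): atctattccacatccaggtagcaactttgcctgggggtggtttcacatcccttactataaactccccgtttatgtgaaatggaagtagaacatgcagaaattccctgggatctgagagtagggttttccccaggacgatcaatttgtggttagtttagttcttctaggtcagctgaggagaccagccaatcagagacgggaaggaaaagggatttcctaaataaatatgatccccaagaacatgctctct
Cxcl10 (chr5:92348890-92349139, minus strand): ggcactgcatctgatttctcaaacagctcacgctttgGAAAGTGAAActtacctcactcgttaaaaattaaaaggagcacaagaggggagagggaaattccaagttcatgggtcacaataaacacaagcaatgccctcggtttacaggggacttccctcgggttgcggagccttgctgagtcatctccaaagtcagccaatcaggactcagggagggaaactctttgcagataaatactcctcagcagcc
Gbp2 (chr3:142620413-142620662, plus strand): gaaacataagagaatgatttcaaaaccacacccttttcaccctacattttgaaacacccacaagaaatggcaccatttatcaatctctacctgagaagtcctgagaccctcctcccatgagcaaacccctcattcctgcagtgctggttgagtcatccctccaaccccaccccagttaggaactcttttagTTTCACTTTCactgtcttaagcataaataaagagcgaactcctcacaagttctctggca
Igtp (chr11:58199306-58199555, plus strand): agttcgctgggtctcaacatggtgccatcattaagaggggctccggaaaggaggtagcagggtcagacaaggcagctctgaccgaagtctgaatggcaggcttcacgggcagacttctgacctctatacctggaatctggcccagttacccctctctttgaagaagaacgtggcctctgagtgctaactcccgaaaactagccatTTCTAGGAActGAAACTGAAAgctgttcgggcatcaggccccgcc
Cxcl10, Gbp2 and Igtp each held 1 ISRE match, beginning 213, 59 and 34 bases before the start. Igtp also held 1 GAS match, 45 bases before the start, which does not overlap its ISRE match. Cxcl9 held neither, which says only that these letters are not in this window. Of the 12 measured GTPases, 8 had an entry in the table, and 7 of these 8 held an ISRE match and 4 a GAS match. Over all 32851 promoters in the table, 2.98% held an ISRE match and 7.02% a GAS match. Counted by promoter in the same way, the 8 GTPases had 9 promoters, of which 7 held an ISRE match and 4 a GAS match. Among the interferon-stimulated genes described next, 13 of 19 had an entry, 6 of the 13 held an ISRE match and 3 a GAS match. Of the 17 measured chemokines, 11 had an entry, of which 2 held an ISRE match and 0 a GAS match. Of the 14 MHC class I genes, 12 had an entry, of which 2 held an ISRE match and 2 a GAS match. A match in this window is a description of the letters and not of binding.

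The interferon-stimulated antiviral genes, which type I interferon and interferon gamma both raise, fell in the same way. All 19 measured members were below 0 in both genotypes, where 39.8% of all genes were (44.3% were above 0 in both), and 17 were called lower. Their median difference was -2.73. Irf7, the transcription factor that amplifies interferon production, went from 2.06 and 2.64 to -1.16 and -0.93 (-3.39 ± 0.53; adjusted p 0.0378, limma). Zbp1, a sensor of left-handed nucleic acid, went from -0.64 and -0.40 to -4.84 and -4.45, a 17.5-fold fall. The acute and chronic arrays of both genes did not overlap, which follows from naming genes with large differences. The naive levels were -1.41 and -2.09 for Irf7 and -4.46 and -5.81 for Zbp1, which was well above background on 1 of the 2 naive arrays. Oasl2 and Oas1a, which belong to the oligoadenylate synthetase family, fell by 3.78 and 3.30, and the ubiquitin-like modifier Isg15 by 1.87. Mx2 (-0.68) and Irf9 (-0.72) were not called. Without the Cx47-deficient chronic array 1 of the 19 was called, and without the iguratimod arrays 9.

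Chemokines attract leukocytes, and 2 of the 4 largest falls of the comparison were chemokines. Cxcl9, induced by interferon gamma and read by CXCR3 on T cells, lay at -0.28 and 0.66 in the acute and at -5.23 and -4.24 in the chronic phase, a 30.4-fold fall (-4.92 ± 0.47; adjusted p 0.0292, limma; probe at chr5:92752191-92752250 on mm9). Cxcl10, which binds the same receptor, went from 1.52 and 2.20 to -3.46 and -2.63, a 29.9-fold fall with the smallest error among the 12 largest falls (-4.90 ± 0.20; adjusted p 0.0204; probe at chr5:92775781-92775840). On the naive arrays Cxcl9 was not well above background (-7.34 and -7.74), and Cxcl10 was on 1 of the 2 (-5.42 and -4.67). The monocyte attractants Ccl2 (-4.03), Ccl7 (-3.95), Ccl8 (-3.42) and Ccl12 (-3.22) fell, and so did Ccl5 (-3.70), which attracts T cells. In all, 9 of 17 measured chemokines were called lower and 1 higher (52.9% and 5.88%, against 5.85% and 10% of all genes). The rise was Ccl21a, a homing signal of lymphoid tissue, from -1.15 and -1.05 to 0.69 and -0.26 (1.32 ± 0.30; adjusted p 0.0470); Ccl21 genes have near-identical copies, so this probe may read several. Without the Cx47-deficient chronic array 5 chemokines were called lower.

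MHC class II molecules present antigen to CD4 T cells. Of 10 measured class II presentation genes, 8 were called lower and 0 higher, with a median difference of -2.63. H2-Aa lay at 0.88 and 1.91 in the acute and at -2.73 and -2.45 in the chronic phase, a 15.9-fold fall (-3.99 ± 0.36; adjusted p 0.0292, limma). H2-Ab1 went from 4.06 and 4.85 to 0.36 and 0.63, and the invariant chain Cd74 from 3.26 and 4.21 to 0.67 and 0.75. The chronic levels of these genes stayed above their naive levels, which were -4.79 and -4.64 for H2-Aa, -1.24 and -1.75 for H2-Ab1, and -1.96 and -0.87 for Cd74. Ciita, the master regulator of class II transcription, differed by -1.24 and was not called. Without the Cx47-deficient chronic array 2 of the 10 were called.

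MHC class I genes and the immunoproteasome, which supply antigen to CD8 T cells, showed 9 of 14 members called lower and 0 higher, with a median of -2.19, or -1.15 with the mean of probes in place of the brightest. H2-Q4, a class I gene of the Q region named after its values were seen, went the other way, from 4.98 and 6.45 to 7.57 and 7.43 (1.78 ± 0.50; adjusted p 0.0644, limma), and 1 member was called higher with normexp, with the filter on all 4 arrays, with median or spike-in centring and with the spike-in slope. The proteasome subunits Psmb8 and Psmb9 fell by 3.18 and 2.89, and the peptide transporter Tap1 by 2.86. H2-K1 fell by 2.54 and H2-D1 by 2.28; class I heavy chains are near copies of each other, so their probes may share signal. B2m, the common light chain, went from 5.48 and 5.74 to 3.27 and 3.75, against naive levels of 3.31 and 2.88, and its other probe differed by -0.03. Of the 14 members, 6 were called lower without the iguratimod pair, and 6 with no filter on dim probes.

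Complement tags synapses, myelin and cells for removal. Of 13 measured members, 10 were called lower and 0 higher, and all 13 were below 0 in both genotypes, with a median of -1.76. Cfb, the factor B of the alternative pathway, lay at -0.35 and 0.93 in the acute and at -4.39 and -4.93 in the chronic phase, a 31.0-fold fall (-4.96 ± 0.61; adjusted p 0.0321, limma), and its second probe differed by -5.25. C3, the component on which the pathways meet, went from 2.34 and 3.40 to -0.91 and -0.03 (-3.34 ± 0.30; adjusted p 0.0292). C3 lay at -1.21 and -1.06 on the naive arrays, and Cfb was not well above background there (-7.21 and -7.60). The C1q chains C1qa, C1qb and C1qc, made by microglia and macrophages, fell by 2.28, 2.58 and 2.14, to levels below those of the naive arrays.

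**Figure D2:**
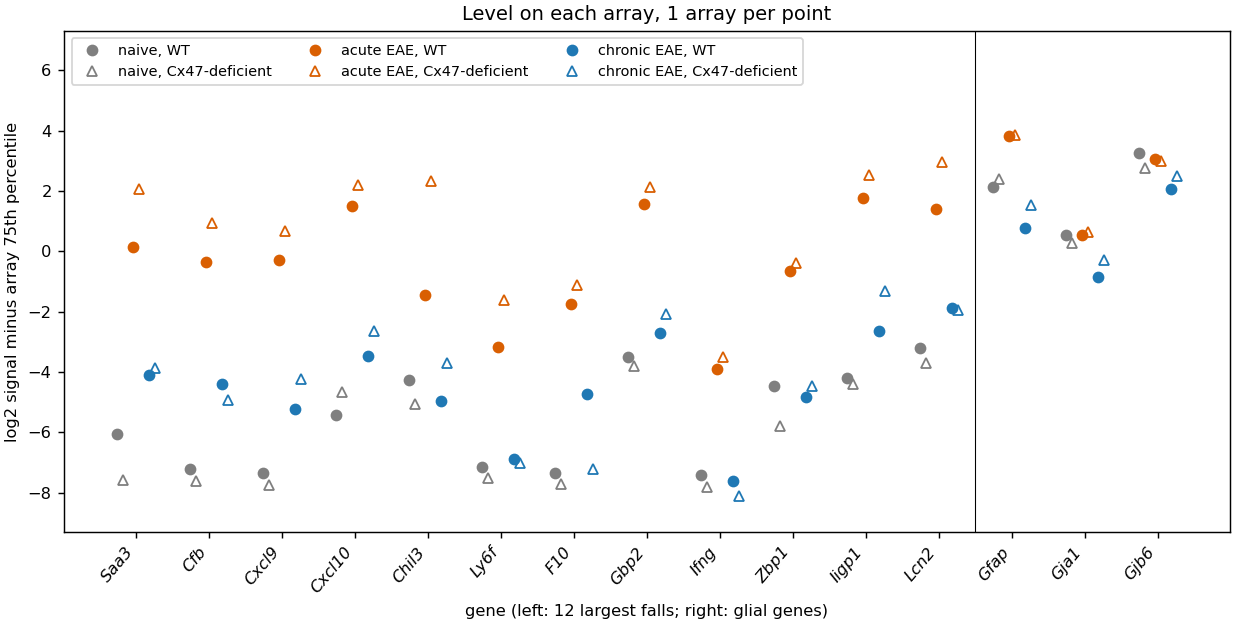
Level of the 12 largest falls and of 3 glial genes (horizontal axis) as log2 signal minus the array's 75th percentile (vertical axis), 1 point per array, with filled circles for WT, open triangles for Cx47-deficient mice, and colour for naive, acute and chronic. For each of the 12 falls, which were chosen by size, both chronic arrays lie below both acute arrays. Gfap lies at 3.83 and 3.87 in the acute phase and at 0.77 and 1.53 in the chronic phase.

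Saa3, Chil3 and Lcn2, acute phase and myeloid products among the largest falls, had larger differences in the Cx47-deficient pair than in the WT pair, which could not be tested with 1 array per group. Saa3, serum amyloid A3, lay at 0.14 and 2.06 in the acute and at -4.10 and -3.86 in the chronic phase, which is 18.9-fold in the WT and 60.3-fold in the Cx47-deficient pair (fitted -5.08 ± 0.89; adjusted p 0.0388, limma; probe at chr7:53967559-53967618 on mm9). Chil3, a lectin of alternatively activated macrophages, went from -1.45 and 2.34 to -4.95 and -3.70, so the WT pair changed by -3.50 and the Cx47-deficient pair by -6.04. Lcn2, the iron-siderophore binder lipocalin 2, went from 1.40 and 2.96 to -1.87 and -1.93 (-4.08 ± 0.50; adjusted p 0.0321). For these 3 genes the Cx47-deficient acute array was the highest of the 4, and the 2 acute arrays lay further apart than the 2 chronic arrays. F10, coagulation factor X, was well above background on 1 of the 2 chronic arrays. Ly6f was on neither and was at least 10.6-fold lower; it belongs to a cluster of similar Ly6 genes.

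Of the monocyte and macrophage genes, 9 of 16 were called lower and 1 higher, with a median of -1.75. Plac8 fell from 0.27 and 0.72 to -2.80 and -3.68, Lyz2, lysozyme M, from 4.63 and 6.07 to 2.47 and 2.42, and Ly6c2, a marker of inflammatory monocytes, from 3.57 and 3.79 to 0.42 and 1.30. Ly6c2 and Ly6c1 are near copies and both fell by 2.82. Lyz2 remained above its naive levels of 0.82 and 0.91, and Plac8 was not well above background on either naive array, while Ly6c2 was below its naive level of 0.91 in the WT mice and above that of -0.93 in the Cx47-deficient mice. The rise, 6.25% of the list against 10% of all genes, was Itgam, the integrin CD11b, by 0.71.

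Microglia carry a homeostatic set of genes at rest and a disease-associated set when they meet damage. Of the disease-associated set, 10 of 16 were called lower and 1 higher. Clec7a, a pattern receptor, lay at 1.18 and 2.24 in the acute and at -1.82 and -1.17 in the chronic phase (-3.21 ± 0.30; adjusted p 0.0292, limma). Cst7 and Itgax fell by 3.44 and 2.69, and the lipid receptor Trem2 and its adaptor Tyrobp by 1.42 and 2.08. The rise, 6.25% of the set against 10% of all genes, was Lpl, lipoprotein lipase, by 2.20 at its brightest probe. The 5 other kept probes of Lpl ranged from -0.78 to 2.94. Of the homeostatic set limma called 0 of 12, with 8 at an unadjusted p under 0.05. Tmem119 was at 1.57 and 1.58 in the acute and 0.39 and 0.22 in the chronic phase (-1.27; adjusted p 0.0590), and P2ry12 differed by -0.34. The homeostatic median was -0.64, against -1.44 for the disease-associated set.

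Of the T and NK cell genes 6 of 15 were called lower and 0 higher, and the list's median was -1.97. Ifng and Gzmb passed the filter through the acute arrays alone, so a call of either is not independent support. With the filter on all 4 arrays, 6 of the 13 genes then fitted were called lower. Gzmb, the cytotoxic protease granzyme B, was well above background on both acute arrays and on neither chronic array, and was at least 4.01-fold lower. Cd2 went from -2.29 and -0.71 to -3.92 and -4.01 and Nkg7, a granule protein, from -2.26 and -1.31 to -4.33 and -3.95. Neither gene was well above background on the naive arrays. Cd247 fell by 1.97 at its bright probe and differed by 2.47 at another. Among 11 measured B and plasma cell genes 0 were called lower and 2 higher (18.2%, against 10% of all genes). These 2 were Ms4a1, which encodes CD20, and Cr2, the complement receptor CD21. Ms4a1 went from -4.84 and -3.56 to -0.97 and -1.07 (3.18 ± 0.66; adjusted p 0.0431), and its other probe differed by 3.22 in the WT and -0.90 in the Cx47-deficient pair. The B cell list's median of 0.28 turned negative under 6 other scalings.

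Of 13 neutrophil genes, 4 were called lower, among them the calprotectin subunits S100a8 (-1.92) and S100a9 (-1.81), and 1 higher, the G-CSF receptor Csf3r (1.54). These are 30.8% and 7.69%, against 5.85% and 10% of all genes. Proinflammatory cytokines were hard to measure, since 5 of 14 listed did not pass the filter on dim probes. Of the 9 measured, 2 were called lower, Il1a, at least 1.60-fold, and Tnfsf13b, the B cell survival factor BAFF (-0.95), whose other probes differed by -0.51 and 2.36. Il1a passed the filter through the acute arrays alone, so its call is not independent support. Il1b differed by -1.32 in the WT and by -3.51 in the Cx47-deficient pair and was not called (adjusted p 0.0807, limma). Il6, whose difference was -0.65 ± 0.81, exceeded background clearly on 1 acute and 1 chronic array. The NF-kB targets Bcl3 (-2.51) and Icam1 (-2.36) fell, with 4 of 12 of that list called lower and 0 higher.

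Reactive astrocyte genes fell. Gfap, the intermediate filament that marks reactive astrocytes, lay at 3.83 and 3.87 in the acute phase and at 0.77 and 1.53 in the chronic phase (-2.70 ± 0.22; adjusted p 0.0248, limma; probe at chr11:102751813-102751872 on mm9), and its second probe differed by -2.93. Both chronic values were below the naive levels of 2.12 and 2.41. Of the pan-reactive list, 7 of 11 were called lower and 0 higher, with a median of -1.62. Serpina3n, a secreted protease inhibitor, went from 0.97 and 1.54 to -2.43 and -1.78, a 10.2-fold fall. Vim, vimentin, differed by -0.97 and was not called. The list of A1 genes, first described in neuroinflammation, had 8 of 12 called lower, led by Gbp2, Iigp1, C3 and Psmb8, which are also members of the lists above. The A2 list, first described in ischaemia, had 1 of 10 called lower (10%, against 5.85% of all genes), the transglutaminase Tgm1, at least 5.25-fold lower. Tgm1 passed the filter through the acute arrays alone, so its call is not independent support.

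The genes that define resting astrocytes were lower by less, and more so in the WT pair. Of 22 members 4 were called lower (18.2%, against 5.85% of all genes) and 0 higher. Under the 8 other scalings 2 to 12 were called lower and 0 to 2 higher. The 4 were Gfap, which is also on the pan-reactive list, the fatty acid binder Fabp7 (-1.76), the potassium channel Kcnj10 (-1.35) and Gja1. Gja1 encodes connexin 43 (-1.16 ± 0.26, adjusted p 0.0473, limma). Gja1 went from 0.53 and 0.64 to -0.85 and -0.29, while its other probes disagreed, at -1.80, -1.60, 1.79 and 2.45. Gjb6, connexin 30, went from 3.05 and 2.99 to 2.08 and 2.50 and was not called (-0.74 ± 0.28; adjusted p 0.114). The list's median was -0.96 over both genotypes, -1.37 in the WT pair and -0.49 in the Cx47-deficient pair, and turned to 0.12 after division by the spike-in slope. Genes that are bright on these arrays were lower on the chronic arrays in general: the brightest 10% of all genes had a median difference of -0.52 in the WT and -0.16 in the Cx47-deficient pair. The part of this in the astrocyte result was not tested. Ribosomal protein genes, which are also bright, had a median of -0.90, turning to 1.05 after division by the spike-in slope.

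Myelin genes had a median of -0.95, with 4 of 18 called lower and 2 higher (22.2% and 11.1%, against 5.85% and 10% of all genes). Mbp, myelin basic protein, went from 5.52 and 5.19 to 3.06 and 3.73 (-1.96 ± 0.32; adjusted p 0.0378, limma), while its 2 other probes differed by -2.66 and -0.13. Mobp (-1.37), Cnp (-1.20) and the lineage transcription factor Sox10 (-1.38) also fell. The rises were Ermn, ermin (1.20), and the myelin transcription factor Myrf (1.14). The WT pair's median was -1.44 and the Cx47-deficient pair's -0.43. Of 13 oligodendrocyte precursor genes limma called 0 (5 at an unadjusted p under 0.05), and of 20 cholesterol synthesis genes 1, Mvd (-0.96). For cholesterol synthesis that is 5% called lower, near the 5.85% of all genes.

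Endothelial genes had a median of -1.38, with 4 of 20 called lower (20%, against 5.85% of all genes). These were Ly6c1, the von Willebrand factor gene Vwf (-2.26), Eng (-1.63) and the adhesion molecule Vcam1 (-1.29). A dim probe of Vwf differed by 1.75. The tight junction gene Cldn5 differed by -2.48 and was not called (adjusted p 0.0513, limma). Proliferation genes had 5 of 20 called lower (25%), among them Mki67 (-0.92) and Top2a (-1.96), of which 1 further probe differed by 2.40. Under the 8 other scalings 3 to 14 endothelial and 2 to 15 proliferation genes were called lower. Of 26 pericyte, fibroblast and matrix genes 4 were called lower and 1, the collagen Col5a1, higher (2.23). These are 15.4% and 3.85%, against 5.85% and 10% of all genes. Limma called 0 of 22 genes of the neuronal list, 0 of 12 forebrain genes and 0 of 18 immediate early genes. Their medians were -0.11, -0.06 and -0.05, and 4, 1 and 2 members had an unadjusted limma p under 0.05. The neuronal count and median include Ptpn11, which stood in for the listed Syp.

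**Figure D3:**
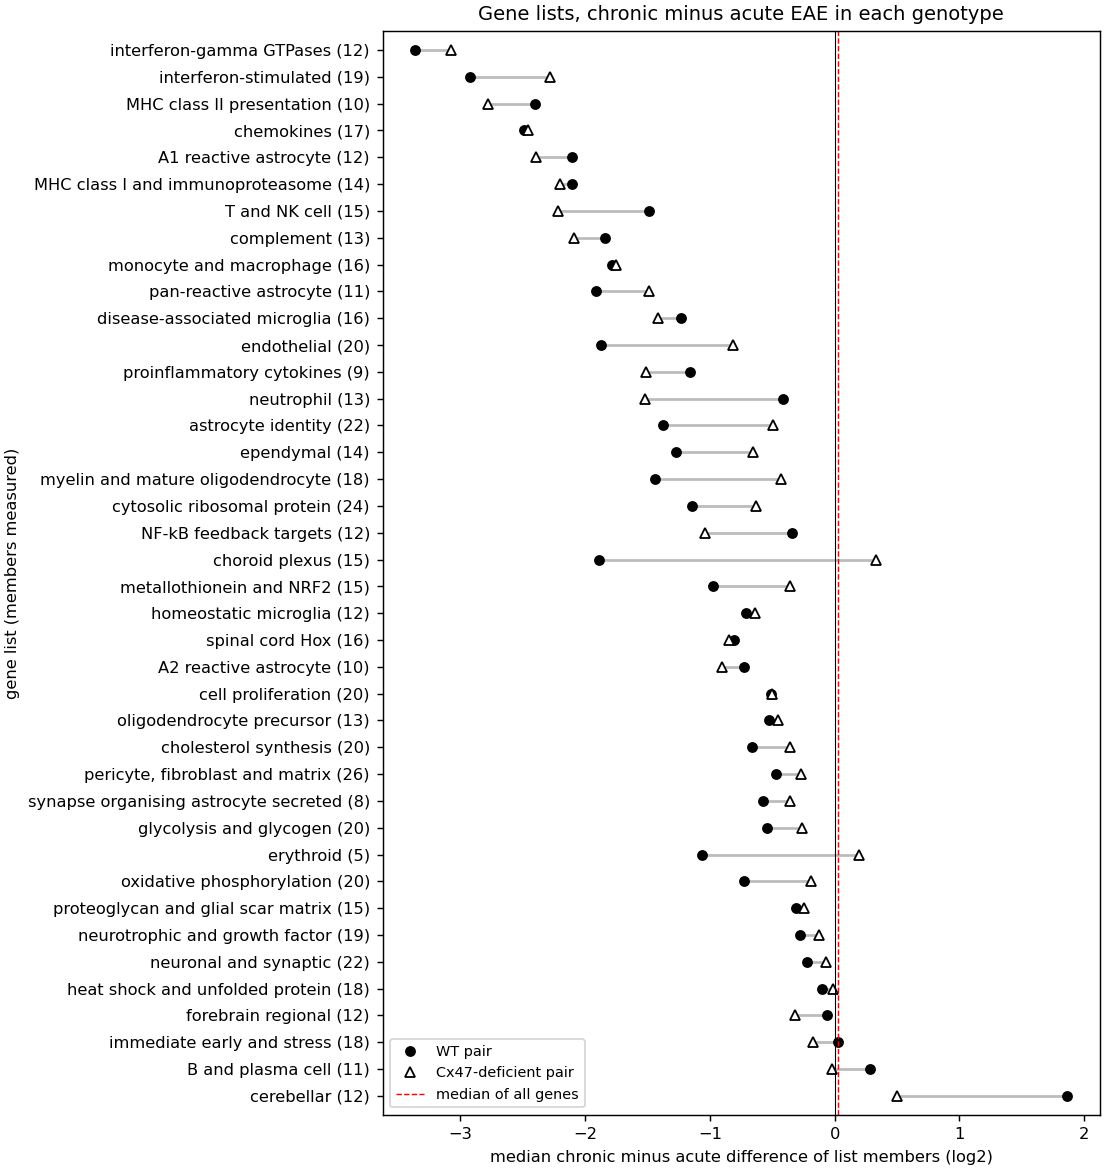
Median chronic minus acute difference (horizontal axis, log2) of the measured members of each of 40 gene lists (vertical axis), as a circle for the WT pair and a triangle for the Cx47-deficient pair, with the median of all genes, 0.03, as a dashed line. Interferon gamma GTPases are lowest at -3.36 and -3.07, choroid plexus genes lie on opposite sides of 0 at -1.89 and 0.33, and cerebellar genes are highest at 1.86 and 0.50.

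The rises contained few genes of the pathways above. The 12 largest among named genes were Tssk5, Tmem52b, Acot12, Defb14, Slc22a12, Vpreb2, Hmx1, Lrp2bp, Spink5, Olfr1500, Efna2 and Vmn1r216. Several are best known from other tissues: Tssk5 is a kinase of the testis, Slc22a12 a urate transporter of the kidney, Spink5 a protease inhibitor of the skin, and Olfr1500 and Vmn1r216 are chemosensory receptors. Tssk5 lay at -3.08 and -0.40 in the acute and at 3.22 and 3.47 in the chronic phase, a 33.9-fold rise (5.08 ± 0.96; adjusted p 0.0409, limma). Efna2, an ephrin ligand, went from -2.03 and -1.14 to 1.88 and 1.98 (3.51 ± 0.37; adjusted p 0.0294). In both genes the 2 chronic arrays lay close together and the WT acute array was the lowest of the 4. Of the 12, Acot12, Defb14, Slc22a12, Vpreb2, Lrp2bp, Spink5 and Vmn1r216 were not well above background on either acute array, so their rises are bounds, from at least 2.49-fold for Vmn1r216 to at least 8.59-fold for Defb14. The noncoding RNAs 5430431A17Rik (5.38) and 9430078K24Rik (5.12) rose more than any of the 12 and were chosen after their values were seen.

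Of the 2447 rises, 687 (28.1%) were dim on both acute arrays, and 1684 (68.8%) were not RefSeq protein-coding genes. Of the 1425 falls, 965 (67.7%) were protein-coding, close to the 64.7% of all genes measured. Among 6608 genes with no name beyond that of the array design 20.8% rose, and among 1694 long noncoding RNAs 16.2%, against 4.84% of 15751 protein-coding genes. Among the 20207 genes well above background on all 4 arrays, rises and falls were nearly even, 1410 and 1341. The median difference ran from 1.31 in the dimmest 10% of genes to -0.34 in the brightest 10%. The filter bears on this, since 1791 genes passed it through both chronic arrays alone (median 1.75) and 86 through both acute arrays alone (median -1.84). In 84.2% of the rises the WT acute array was lower than the Cx47-deficient acute array, and the WT acute array also had the fewest spots well above background of the 4 arrays, 59.9%. Whether the spot share, the slide, the spike-in slope or the sex-linked pattern had a part in the rises was not tested.

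**Figure D4:**
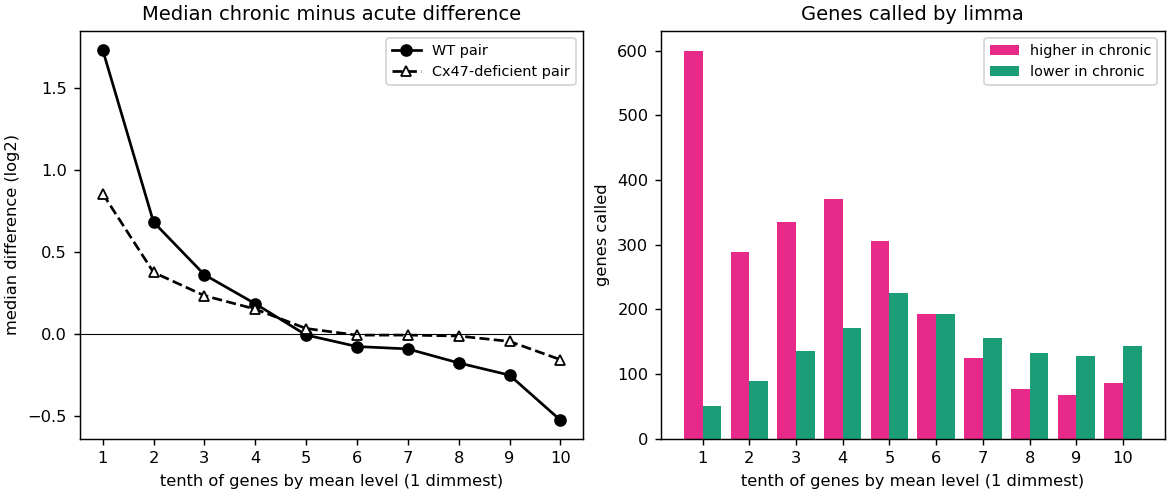
Left, median chronic minus acute difference (log2) in each of 10 equal classes of genes by mean level, for the WT pair (circles) and the Cx47-deficient pair (triangles); right, number of genes called higher or lower in the same classes. The WT median runs from 1.73 in the dimmest class to -0.52 in the brightest, and 600 genes rose and 50 fell in the dimmest, which includes genes that passed the filter through the chronic arrays alone.

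Of 19 measured neurotrophic and growth factor genes 2 were called higher and 1 lower, near the 10% and 5.85% of all genes, and the list's median was -0.23. The growth factors Fgf2, from -4.81 and -5.26 to -2.68 and -2.73 (2.33 ± 0.26; adjusted p 0.0296, limma), and Hgf (1.69), which both act on glia, rose, while Tgfb1 fell by 1.71. Fgf2 was well above background on 1 of the acute arrays and on both chronic arrays. Other probes of Hgf differed by 0.08 and 2.15. The stress transcription factor Ddit3, also called CHOP, rose by 2.67 at the probe that represents it, while its other probe differed by -0.55. Of 439 risen genes with another kept probe, that probe or 1 of them had the opposite sign in 168 (38.3%), and of 375 such fallen genes in 130 (34.7%).

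Whether Cx47 deficiency altered the step from acute to chronic disease could be described but not tested, since each genotype gives 1 difference. The GTPase median was -3.36 in the WT and -3.07 in the Cx47-deficient pair, that of the interferon-stimulated genes -2.93 and -2.28, and that of the chemokines -2.49 and -2.46. Choroid plexus genes, which encode secretory and transport proteins of the epithelium that makes cerebrospinal fluid, moved apart. Their median was -1.89 in the WT and 0.33 in the Cx47-deficient pair, and limma called 0 of 15 over both, with 1 at an unadjusted p under 0.05. Ttr, transthyretin, lay at 4.92 and 3.59 on the acute and at 1.34 and 4.18 on the chronic arrays, and its second probe moved in the same way (-2.86 in the WT and 0.78 in the Cx47-deficient pair). Folr1 changed by -2.69 and 0.80 and Aqp1 by -3.21 and 0.26. Cerebellar genes had a median of 1.86 in the WT and 0.50 in the Cx47-deficient pair, and limma called 0 of 12, with 0 at an unadjusted p under 0.05. The median level of the list was -0.26 on the WT acute array, against 1.66 on the WT naive and 2.19 on the WT chronic array. Gabra6, for example, went from -0.25 and 2.84 to 2.31 and 3.07, and is not characteristic of the spinal cord named in the labels. How much choroid plexus or cerebellar RNA was in each preparation, and its part in the genotype differences, was not tested.

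**Figure D5:**
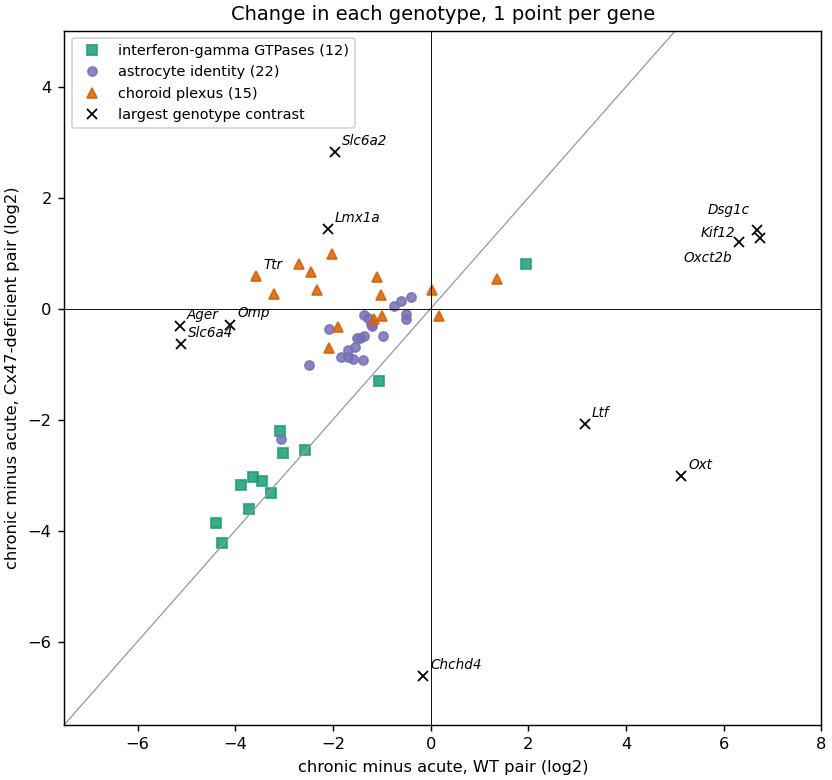
Chronic minus acute difference in the WT pair (horizontal axis, log2) and the Cx47-deficient pair (vertical axis, log2), 1 point per gene, for the interferon gamma GTPases, astrocyte identity genes, choroid plexus genes and the 12 genes with the largest contrast between genotypes, with the line of equal change. The GTPases lie near the line except Gbp5, at 1.94 and 0.80, and choroid plexus genes such as Ttr (-3.58 and 0.59) lie well off it.

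The largest contrasts between genotypes were taken among single genes with 3 or 4 arrays well above background, and their cause was not tested. Oxt, the hypothalamic hormone oxytocin, changed by 5.13 in the WT and by -3.03 in the Cx47-deficient pair, and its second probe by 3.20 and -1.04. The WT chronic array held the high value, 1.07, and the Cx47-deficient acute array the next, -1.19. Chchd4, a mitochondrial import factor, lay between 1.31 and 1.47 on 3 of the arrays and at -5.25 on the Cx47-deficient chronic array. Ager lay at 0.30, 0.26 and -0.05 and at -4.84 on the WT chronic array, but its 3 other kept probes changed by -0.41 to 0.66. Kif12, Dsg1c and Oxct2b shared 1 pattern, with a low WT acute array (-6.78, -6.76 and -6.49) and the other 3 arrays between -1.66 and -0.03, and the second probes of Kif12 and Dsg1c did not show it. In the other direction, Slc6a4 and Slc6a2, the serotonin and noradrenaline transporters, had Cx47-deficient changes 4.47 and 4.78 above the WT changes, and Omp, an olfactory neuron protein, one 3.81 above. The Cx47-deficient change was at least 2-fold below the WT change in 2222 genes (9.12%) and at least 2-fold above it in 691 (2.84%).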

How the data were processed

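RNA of 8 groups, 1 Agilent single-colour array each, was measured. Spot intensity (processed signal) and the flags for well above background and outlier spots were read as deposited; per the file headers they came from Feature Extraction 10.7.1.1 with probes on mm9, while the submitters' processing notes name version 9.5.1.1. The authors' own table of quantile normalized intensities was also deposited, and its log2 values served as an alternative. Here, log2 intensity minus the 75th percentile of each array was taken, control and outlier spots were left out, spots of a probe were averaged, and the brightest kept probe stood for its gene. No column of values lacked a sample (0). limma 3.58.1 in R 4.3.3 fitted condition and genotype over all 8 arrays. Summaries used Python 3.11.15. The scripts were tested on simulated data. A gene dim on both arrays of a group was given as a bound.

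The members and lists were chosen with earlier results of these data known. Named genes are the 12 largest rises and 12 largest falls with the same sign in both genotypes and in the normexp, quantile, cyclic loess and authors' values, skipping clone names; in each list called members and up to 4 of the largest differences; the 6 largest contrasts between genotypes each way; and Gfap, Gja1, Gjb6, Il6, C3, Lcn2, Serpina3n and Vim. Some items, the check of the targeted gene among them, are not reported here. Spike-in centring and probe GC classes were alternatives chosen after seeing the data. The number of arrays limits the precision. Alternatives covered background, normalization, the filter on dim probes, the probe of a gene, and the arrays, terms and threshold of the fit.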

Additional observations from a re-analysis of the deposited data

Results flagged for a closer look

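Opposite signs in the 2 genotypes are given here for the lists whose medians lay at least 2-fold apart and the contrast genes at least 2-fold each way, each from 1 difference per genotype, so the difference between genotypes was not tested. Over all genes 19 moved 2-fold in opposite directions. The medians of the B and plasma cell list (0.28 and -0.020) and of the immediate early list (0.028 and -0.17) also had opposite signs. The median of the choroid plexus genes was -1.89 in the WT and 0.33 in the Cx47-deficient pair, and that of the 5 measured erythroid genes, which include near copies of globin genes, -1.06 and 0.20. Oxt changed by 5.13 and -3.03, and Ltf, the neutrophil granule protein lactoferrin, by 3.16 and -2.07. Slc6a2 changed by -1.95 and 2.83, and Lmx1a, a transcription factor of the roof plate and choroid plexus, by -2.11 and 1.43.

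Outside the main measurement, the spike-in probe E1A_r60_a107 was 2.79 higher on the chronic array in the WT pair and 2.76 higher in the Cx47-deficient pair, while the 7 spike-in probes well above background on all 4 arrays were lower. Every group held 1 array, and no sample was set against others of its group.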

How the results depend on the processing

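The count of 3872 calls was 7209 with normexp, 6441 with median centring, 11458 after division by the spike-in slope, 6157 with spike-in centring, 746 with no filter, 0 with the 4 arrays alone (8577 at an unadjusted p under 0.05 in limma), 615 without the iguratimod pair and 8951 at an adjusted p under 0.10. Leaving out 1 array at a time gave 0 to 2682. The count of genes 2-fold in both genotypes, higher, was 1079 with normexp, 4191 with spike-in centring, 1431 with the filter on all 4 arrays and 898 at 3-fold. The count of genes 2-fold in both genotypes, lower, was 534 with normexp, 1601 with quantile normalization, 1755 with median centring, 5463 with the spike-in slope, 1582 with the authors' values, 439 with spike-in centring and 321 at 3-fold.

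List medians that changed sign were, with the spike-in slope, neuronal 1.15, oxidative phosphorylation 1.39, forebrain 0.19, immediate early 0.29, astrocyte identity 0.12, B and plasma cell -1.52, cholesterol synthesis 0.17, heat shock 1.25, metallothionein 0.061, glycolysis 1.37 and ribosomal protein 1.05. The B and plasma cell median was also -0.055 with normexp, -0.33 with quantile normalization, -0.12 with median centring, -0.13 with cyclic loess and -0.32 with the authors' values. Heat shock was 0.29 with quantile normalization, 0.29 with cyclic loess, 0.17 with the authors' values and 0.32 with spike-in centring. Neuronal was 0.19 with quantile normalization, 0.17 with cyclic loess, 0.053 with the authors' values and 0.28 with spike-in centring, and oxidative phosphorylation 0.15 with quantile normalization and 0.11 with cyclic loess. Forebrain was 0.33 with spike-in centring and 0.053 with the mean of probes, and immediate early 0.34 with spike-in centring and 0.026 with probe GC classes. Glycolysis was 0.086 with cyclic loess, and with spike-in centring neurotrophic factors were 0.16 and proteoglycans 0.15. Gjb6 was 0.15 with the spike-in slope, and Il6 ranged from -1.72 without the WT chronic array to 0.42 without the Cx47-deficient chronic array. The cause was not tested. Genotype pairs the arrays in the reported fit and in that of the 4 arrays alone, and without the genotype term 4136 genes were called.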
